A study of Mus musculus with 17 samples.

Results

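The 49 interferon-stimulated genes described here were chosen by symbol, as a fixed list of sensors, signalling proteins and antiviral effectors, and all 49 were found among the 24453 gene models of the expression table. By role, the list held 11 sensors of foreign nucleic acid, 10 STAT and regulator genes, 20 antiviral effectors and 8 interferon-inducible GTPases. PolyA RNA-seq values, as RPKM (reads scaled by exon length and by library size), were read in 2 kinds of mouse macrophage, labelled male and studied for the roles of the AP-1 transcription factors ATF3, Jun and JunD. Immortalised bone marrow-derived macrophages (iBMDMs) were C57Bl/6EiJ marrow cells transformed by a retrovirus carrying Myc and mutant BRAF, at passages 3 to 8. They expressed Cas9 and received a lentivirus with a pair of guides, and infected cells were sorted by its fluorescent marker. The groups were Atf3KO, JunKO, JunDKO and a scramble control (Scramble), with 2 libraries each, all labelled vehicle. The control is Scramble by its genotype label, while its titles name zsGreen, a fluorescent protein. Thioglycollate-elicited macrophages (TGEMs) were primary peritoneal cells that received PBS (vehicle) or KLA (Kdo2 lipid A, which activates the lipopolysaccharide receptor TLR4) for 1 h. There was 1 library of each treatment from C57Bl/6EiJ cells, and 1 of vehicle and 2 of KLA from Balb/cJ cells. The 4 GRO-seq samples of the series were not analysed here.

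Type I interferons act through the receptor IFNAR, whose kinases JAK1 and TYK2 phosphorylate STAT proteins. The factor ISGF3, which holds STAT2 and IRF9, then binds the interferon-stimulated response element (ISRE) in the promoters of such genes, while interferon-gamma acts at GAS elements. Macrophages keep a basal level of this programme, and TLR4 raises it through TRIF, TBK1 and IRF3 by way of newly made interferon-beta.

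Of the 49 genes, 39 had a promoter in the RefSeq set used (GRCm38.p6, 300 bases from 250 before to 50 after the start). Of these windows 32 began from the start of the table's own gene model, 6 from a start 35 to 140 bases away and that of Ifi47 from one 10430 bases away. The ISRE core, GAAA repeated after a gap of 2 bases and searched on both strands, was found in 21 of these 39 windows (53.8%) and in 3.43% of 17333 promoters of the same length. The GAS letters TTCNNNGAA were found in 11 (28.2%, against 8.19%) and the AP-1 letters TGANTCA in 8 (20.5%, against 7.32%). Matches of different motifs may share bases. The upstream bases of 8 genes are shown because their mRNAs carry the differences described below, with the ISRE core or TGANTCA in capitals (GAAA reads TTTC on the other strand) and the RefSeq start just after the last base.
Ifit1 (chr19:34640749-34640888, plus strand): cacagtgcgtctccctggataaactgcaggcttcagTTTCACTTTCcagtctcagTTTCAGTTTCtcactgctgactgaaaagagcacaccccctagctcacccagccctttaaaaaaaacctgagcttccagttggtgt
Ifit2 (chr19:34550534-34550693, plus strand): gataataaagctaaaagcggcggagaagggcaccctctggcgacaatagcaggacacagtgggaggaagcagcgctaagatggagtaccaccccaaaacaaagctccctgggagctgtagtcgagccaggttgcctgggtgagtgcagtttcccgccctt
Ifit3 (chr19:34583369-34583528, plus strand): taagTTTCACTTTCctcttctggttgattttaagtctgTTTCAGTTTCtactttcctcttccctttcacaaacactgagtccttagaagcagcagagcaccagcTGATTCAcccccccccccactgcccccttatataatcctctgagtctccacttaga
Rsad2 (chr12:26456453-26456612, minus strand): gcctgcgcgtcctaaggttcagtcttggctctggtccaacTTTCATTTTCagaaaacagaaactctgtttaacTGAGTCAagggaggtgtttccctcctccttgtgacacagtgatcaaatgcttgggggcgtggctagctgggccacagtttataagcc
Cmpk2 (chr12:26469055-26469214, plus strand): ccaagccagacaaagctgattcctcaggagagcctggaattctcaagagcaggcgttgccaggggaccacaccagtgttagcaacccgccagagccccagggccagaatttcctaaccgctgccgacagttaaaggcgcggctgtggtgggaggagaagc
Isg15 (chr4:156200819-156200978, minus strand): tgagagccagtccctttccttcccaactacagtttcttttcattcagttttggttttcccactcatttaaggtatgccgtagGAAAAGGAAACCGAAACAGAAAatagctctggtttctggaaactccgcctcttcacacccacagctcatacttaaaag
Oas1g (chr5:120887614-120887773, minus strand): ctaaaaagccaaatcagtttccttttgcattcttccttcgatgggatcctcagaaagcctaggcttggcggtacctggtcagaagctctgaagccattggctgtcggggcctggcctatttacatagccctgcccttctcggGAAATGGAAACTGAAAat
Bst2 (chr8:71537473-71537632, minus strand): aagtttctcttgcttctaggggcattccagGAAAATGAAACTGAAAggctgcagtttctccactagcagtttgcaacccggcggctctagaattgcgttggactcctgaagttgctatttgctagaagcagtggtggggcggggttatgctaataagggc
Ifit1 and Ifit3 each held 2 separate ISRE cores in these stretches, Oas1g and Bst2 held 2 that overlap, Isg15 held 3 that overlap, and Rsad2 held 1. Rsad2 and Ifit3 also held the AP-1 letters, 87 and 56 bases before the start. Neither motif lay within the stretches of Ifit2 and Cmpk2. A match of letters is a description of the sequence and says nothing of the factor that binds there.

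Depth, recovered from the steps of the RPKM values, spanned 1553296 to 18444334 reads, and JunDKO held both extremes. The Atf3KO libraries stood apart. They held reads of 10425 and 10631 gene models against 11884 to 12533 in the other 6 iBMDM libraries, Atf3KO replicate 2 carries a later label date, and fold changes against Scramble rose with GC content (Spearman's rho 0.50 over 10617 genes, 0.49 over 46 of the listed genes). mRNA levels of the edited genes do not check an edit. The study reported a check of knockout efficiency by western blotting. In the 2 Atf3KO libraries Atf3 was at 154 and 169 RPKM and in the Scramble libraries at 80.7 and 77.4, Jun measured 26.2 and 20.5 in JunKO against 17.6 and 18.5, and Jund 6.94 and 6.07 in JunDKO against 9.19 and 8.33. In Atf3KO, Jund measured 22.6 and 83.0 RPKM and was called higher (2.19 ± 0.49 against Scramble, adjusted p = 0.0100 by limma-trend). The 7 macrophage markers in the table were at 1 RPKM or more in every library. Summed B cell markers reached 10.1 to 23.9 RPKM in TGEMs against at most 0.488 in iBMDMs, mast cell markers 1.78 to 13.2 against at most 0.264, and mesothelial markers 3.38 to 5.71 against 0. Their part in differences between TGEMs and iBMDMs was not tested. All 13 libraries are labelled male, but the 5 TGEM libraries held 863 to 8676 reads of Xist, an RNA made from the inactive X chromosome of female cells, against 0 to 3 in the iBMDM libraries. The labels do not say that replicates came from separate cultures or animals, so p values measure the spread between these libraries, which may be technical.

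Resting iBMDMs held high levels of most of these genes. In Scramble replicates 1 and 2, 34 and 35 of the 49 genes were at 16 RPKM or more, with medians of 26.4 and 27.5 RPKM. The most abundant was Bst2, which encodes tetherin, a membrane protein that holds budding virus particles on the cell, at 212 and 226 RPKM. It was followed by Slfn2, a schlafen family gene (170 and 208 RPKM), Irgm1, an immunity-related GTPase (87.2 and 87.0), and Samhd1, which degrades deoxynucleotides (82.8 and 87.7). Irgm1 and Samhd1 did not differ in order beyond their spread.

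2 sensors had few or no reads in resting iBMDMs. Oasl1, an oligoadenylate synthetase-like gene, had 0 reads in 5 of the 8 iBMDM libraries, which allows at most 0.196 to 0.829 RPKM by library. It had 1 read in JunKO replicate 1, and 7 and 15 reads in JunDKO replicates 1 and 2 (2.13 and 0.385 RPKM). Zbp1, a sensor of Z-form nucleic acid, had 0 reads in 6 libraries, which allows at most 0.210 to 2.49 RPKM, 1 read in Atf3KO replicate 2 and 5 reads (3.34 RPKM) in Scramble replicate 1. These limits cover counting error only. Both fell below the filter of a mean of 1 RPKM over the 8 libraries, so 47 genes were tested in iBMDMs.

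Vehicle TGEMs held far less. Only 5 (C57Bl/6EiJ) and 7 (Balb/cJ) of the 49 genes were at 16 RPKM or more, and the summed level was 502 and 486 RPKM against 1809 and 1919 in Scramble. In 41 of the 49 both vehicle TGEM libraries lay below both Scramble libraries, as did 44.2% of 10859 genes with a mean of 1 RPKM over these 4 libraries, and in 3 both lay above (23.7% of all genes). The median log2 difference was -1.68, against -0.28 over all genes. In bulk libraries fewer cells of a type and less RNA per cell cannot be told apart. Cell type, culture and Xist level move together here, and 1 of the 2 vehicle TGEM libraries is also of another strain, so no test was run.

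The gap was wide for the Ifit genes, whose products bind viral RNA and block its translation. Ifit1 measured 1.30 and 1.30 RPKM in C57Bl/6EiJ and Balb/cJ vehicle TGEMs against 53.1 and 64.3 in Scramble. Usp18, the protease that removes ISG15 and restrains the interferon receptor, measured 1.10 and 4.61 against 74.0 and 65.5. The 3 genes with the opposite order were Oasl1 (3.73 and 12.1 RPKM in TGEMs), Zbp1 (6.11 and 4.41) and Slfn5 (41.8 and 49.3, against 22.7 and 27.4 in Scramble).

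**Figure D1:**
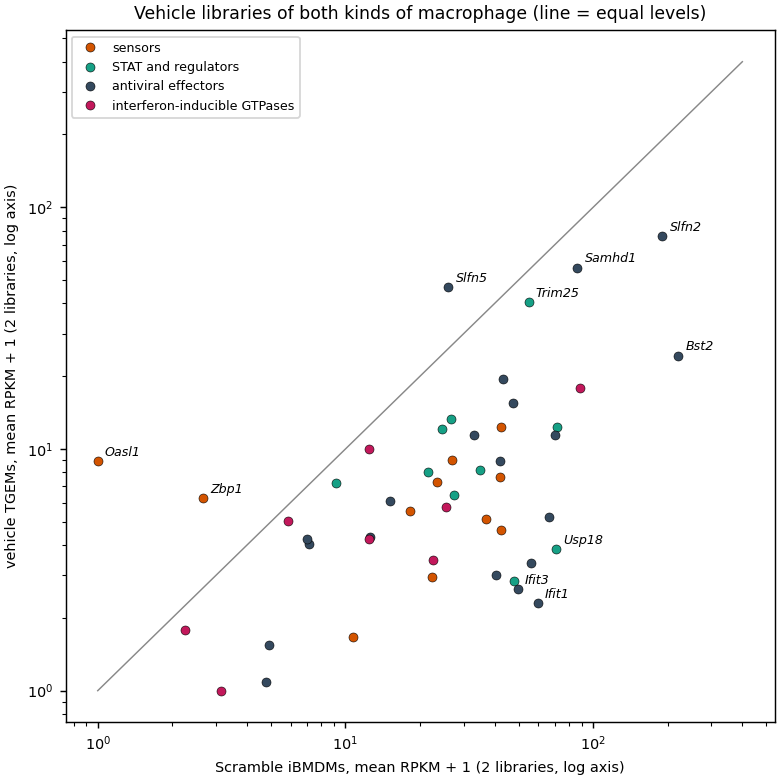
Mean RPKM + 1 in 2 vehicle TGEM libraries (vertical, log axis) against 2 Scramble iBMDM libraries (horizontal, log axis), 1 point per gene, coloured by role. Most points lie below the line of equal levels, with Oasl1, Zbp1 and Slfn5 above it.

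**Figure D2:**
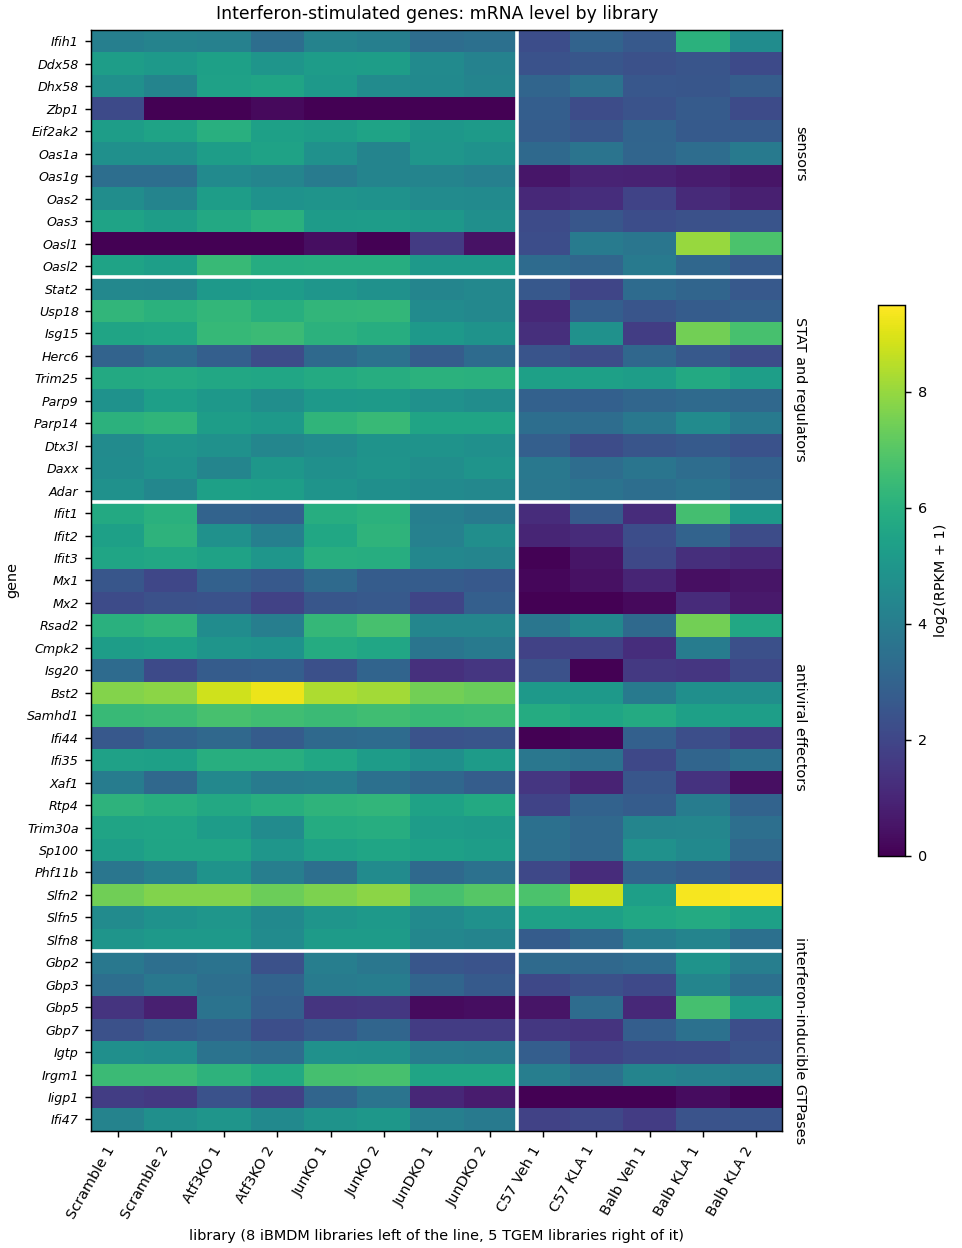
log2(RPKM + 1) of all 49 genes (rows, by role) in the 13 libraries (columns). The iBMDM columns are brighter for most genes, Oasl1 and Zbp1 are dark there, and the Balb/cJ KLA columns are bright for Isg15, Ifit1, Rsad2, Oasl1, Gbp5 and Slfn2.

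The comparison of libraries labelled Atf3KO with Scramble asked which of these mRNAs differ in cells edited at Atf3. The effectors Ifit1, Rsad2 and Ifit2 and the GTPase Igtp were called lower, and the effector Bst2 and the sensor Oas1g were called higher. Ifit1 measured 7.08 and 6.51 RPKM in Atf3KO against 53.1 and 64.3 in Scramble, and fell by 2.93 ± 0.18 on the log2(RPKM + 1) scale (SE, n = 2 per group; adjusted p = 9.64e-05 by limma-trend). Rsad2, which encodes viperin, an enzyme that makes a chain-terminating nucleotide, measured 23.5 and 15.6 RPKM against 64.5 and 73.3, and fell by 1.79 ± 0.23 (adjusted p = 0.00138 by limma-trend). The groups did not overlap for either gene.

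Of 47 genes tested, 6 were called (12.8%), by a limma-trend adjusted p under 0.05, a change of at least 2-fold and 16 RPKM as the mean of either group. Over all 10691 genes tested 12.5% were called, so this share was near the background. Lower were 4 genes (4.69% of all genes) and higher 2 (7.84% of all genes). The groups did not overlap for 27 genes (70.8% of all genes), and the median log2 fold change was -0.02, against 0.05 over all genes. With the GC trend removed these medians were 0.22 and 0.07, the opposite order. They were 0.16 and 0.04 without Atf3KO replicate 2, and 0.046 and 0.039 without Scramble replicate 2. Without Atf3KO replicate 1 they were -0.18 and 0.02, and without Scramble replicate 1 -0.09 and 0.07.

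The other called falls were those of Ifit2 and Igtp. Ifit2 measured 26.9 and 16.0 RPKM in Atf3KO and 40.9 and 69.6 in Scramble, with a wide spread in the control (-1.32 ± 0.35, adjusted p = 0.0188 by limma-trend). Igtp, an immunity-related GTPase that acts on pathogen vacuoles, measured 11.3 and 9.38 against 25.7 and 23.5 (-1.18 ± 0.18, adjusted p = 0.00246 by limma-trend). The call of Igtp was lost with a pseudocount of 5. That of Ifit2 was lost after the GC trend of each library was removed (-0.69), without Scramble replicate 2 and without Atf3KO replicate 2, and its adjusted p spanned 0.00481 (limma-voom) to 0.139 over 15 alternatives.

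Higher in Atf3KO were Bst2 and Oas1g. Bst2 measured 448 and 595 RPKM against 212 and 226 in Scramble, and rose by 1.23 ± 0.19 (adjusted p = 0.00228 by limma-trend). Oas1g, an oligoadenylate synthetase that makes the signal for RNase L, measured 22.5 and 18.8 against 9.85 and 9.65 (1.01 ± 0.20, adjusted p = 0.00652 by limma-trend). Both rises were under 2-fold once the GC trend was removed (0.79 and 0.88), and that of Oas1g was lost in 7 of 15 alternatives. Whether GC content, depth or label date has a part in these differences was not tested.

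By role, 4 of the 9 sensors tested in Atf3KO passed an adjusted p of 0.05, a share (44.4%) near that of all genes (41.2%). All 4 were higher: Oas1g, Dhx58, Oasl2 and Oas1a. Dhx58, which encodes the RNA sensor LGP2, measured 42.1 and 45.1 RPKM against 26.4 and 18.3. Over all 47 genes 14 passed this limit alone (9 higher, 5 lower; 29.8%, below the share of all genes). Among them were Isg15, a ubiquitin-like protein (81.7 and 88.4 RPKM against 45.5 and 48.2; 0.85), Stat2 (34.5 and 36.9 against 20.8 and 20.2; 0.77), Parp14 (38.3 and 33.8 against 68.1 and 72.8; -0.95) and Gbp5, a guanylate-binding protein (11.3 and 6.25 against 1.72 and 0.777; 2.10), the last under the RPKM minimum.

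Libraries labelled JunKO lay close to Scramble. No member of the list was called, 0 passed an adjusted p of 0.05 by limma-trend and 7 had an unadjusted p under 0.05 (7.88% of all genes), and the limma-voom fit called 0 as well. Over all genes 0.196% were called (0.103% higher, 0.0935% lower) and 0.281% had an adjusted p under 0.05. The fitted value was above 0 for 41 of 47 genes, with a median of 0.23 against 0.01 over all genes, and the groups did not overlap in 26 (37.2% of all genes). Iigp1, an immunity-related GTPase, had the widest difference, at 7.59 and 11.5 RPKM against 2.29 and 1.99 (1.72 ± 0.31, adjusted p = 0.105 by limma-trend). For Ifit1 the 95% interval of the difference ran from -0.34 to 0.51 (59.0 and 65.3 RPKM in JunKO), and for Usp18 from -0.31 to 0.54 (74.4 and 76.7 RPKM).

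In libraries labelled JunDKO most of the 47 genes had lower fitted values, and effectors led the called genes. Usp18 measured 23.1 and 20.5 RPKM against 74.0 and 65.5 in Scramble, and fell by 1.63 ± 0.19 (adjusted p = 0.00120 by limma-trend). Cmpk2, a mitochondrial nucleotide kinase encoded beside Rsad2, measured 11.7 and 13.96 against 37.9 and 41.1 (-1.55 ± 0.18, adjusted p = 0.00135 by limma-trend). For both genes JunDKO lay wholly below Scramble.

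Ifit1, Rsad2, Ifit3 and Ifit2 were the other called genes. Ifit1 measured 16.1 and 14.1 RPKM in JunDKO (-1.88 ± 0.18, adjusted p = 6.38e-04 by limma-trend) and Rsad2 19.4 and 19.7 (-1.76 ± 0.23, adjusted p = 0.0026 by limma-trend). Ifit3 measured 20.0 and 18.8 against 47.0 and 50.1 in Scramble (-1.28 ± 0.20, adjusted p = 0.00572 by limma-trend), and Ifit2 17.1 and 24.9 against 40.9 and 69.6 (-1.33 ± 0.35, adjusted p = 0.0464 by limma-trend). The call of Ifit3 was lost without Scramble replicate 2 and without either JunDKO library. That of Ifit2 was lost in 8 of 15 alternatives, among them a fit with the replicate number as a block. Over all 15, of which limma-voom was 1 and the others limma-trend, the adjusted p of Ifit2 spanned 0.00548 to 0.283.

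In all, 6 of 47 genes were called (12.8%), each lower, against 4.97% of all genes (2.69% higher, 2.27% lower). The groups did not overlap for 36 genes (61.6% of all genes). The median log2 fold change was -0.47 while that of all genes was 0.23. At equal library medians 10 genes were called, each lower, against 4.93% of all genes in either direction. Of the 20 effectors 18 had a fitted value below 0, and of the 8 GTPases all 8, although only Irgm1 (45.2 and 45.0 RPKM against 87.2 and 87.0; -0.93) and Igtp (15.0 and 13.97; -0.72) passed an adjusted p of 0.05 by limma-trend. Of 11 genes past that limit (11.7% of all genes), Oas1g was the single one higher (18.4 and 16.5 RPKM; 0.78).

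JunDKO and Scramble overlapped for Stat2, Samhd1 and Oas2. Stat2, a subunit of ISGF3, measured 18.9 and 20.8 RPKM against 20.8 and 20.2, with a 95% interval of the difference from -0.44 to 0.35. For Samhd1 (82.5 and 86.6 RPKM) the interval ran from -0.38 to 0.35, and for Oas2 (22.7 and 22.1 RPKM) from -0.41 to 0.57. Eif2ak2, which encodes the kinase PKR, measured 31.4 and 35.2 RPKM in JunDKO and 37.5 and 44.6 in Scramble, and was not called in any of the 3 comparisons with Scramble. Neither was Mx1, a gene of the Mx GTPase family (5.75 and 5.33 against 4.82 and 3.04 RPKM), nor Gbp2. Gbp2 measured 4.75 and 4.44 RPKM in JunDKO against 12.9 and 10.0 (-1.15 ± 0.38, adjusted p = 0.0928 by limma-trend). For these 3 genes the groups did not overlap. The 3 comparisons above share the Scramble libraries.

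**Figure D3:**
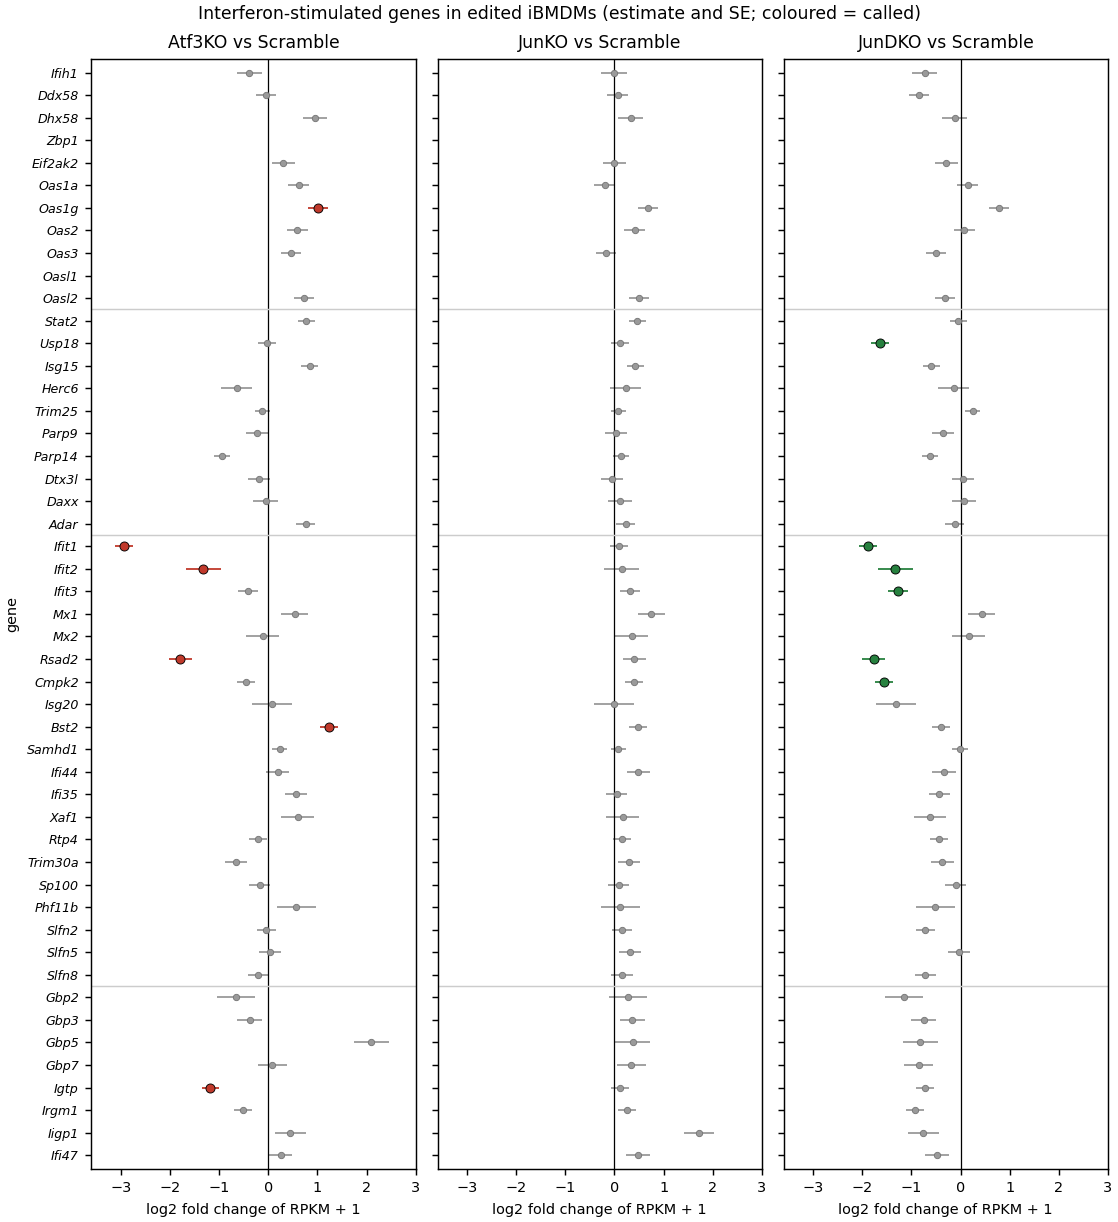
log2 fold change of RPKM + 1 against Scramble (horizontal, estimate and SE) for each gene (rows, by role) in Atf3KO, JunKO and JunDKO. Coloured points are called genes. Ifit1 lies at -2.93 in Atf3KO and -1.88 in JunDKO, and most JunDKO points lie left of 0.

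The direct comparison of JunDKO with JunKO tested the difference between the libraries carrying these labels. Its fold changes use no Scramble library, but the spread was estimated from all 4 groups. 8 of 47 genes were called (17.0%), each lower in JunDKO, against 3.5% of all genes (1.6% higher, 1.9% lower). The median difference was -0.75, against 0.23 over all genes.

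Rsad2 had the widest called difference, at 79.5 and 104 RPKM in JunKO and 19.4 and 19.7 in JunDKO (-2.16 ± 0.23, adjusted p = 0.0013 by limma-trend). Ifit1, Cmpk2, Usp18, Ifit3 and Ifit2 were also called. Isg15 measured 67.9 and 59.0 RPKM in JunKO and 33.4 and 28.1 in JunDKO (-1.02 ± 0.17, adjusted p = 0.0104 by limma-trend), and Irgm1 measured 103 and 106 against 45.2 and 45.0 (-1.19 ± 0.18, adjusted p = 0.00645 by limma-trend). Without JunDKO replicate 1 or without JunDKO replicate 2 there were 5 calls, with the calls of Isg15, Irgm1 and Ifit2 lost. That of Isg15 was also lost without JunKO replicate 1 and with a pseudocount of 5, and that of Irgm1 without JunKO replicate 2. That of Ifit2 was lost in 7 of 15 alternatives, among them a fit with the replicate number as a block (limma-trend adjusted p = 0.0577).

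Among GTPases all 8 had a fitted value below 0 with groups that did not overlap (59.8% of all genes), and 5 of 8 had a limma-trend adjusted p under 0.05 (8.14% of all genes). Iigp1 measured 1.10 and 0.646 RPKM in JunDKO against 7.59 and 11.5 in JunKO (-2.48 ± 0.31, adjusted p = 0.00269 by limma-trend), a difference under the RPKM minimum. All 18 genes past that limit were lower in JunDKO.

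**Figure D4:**
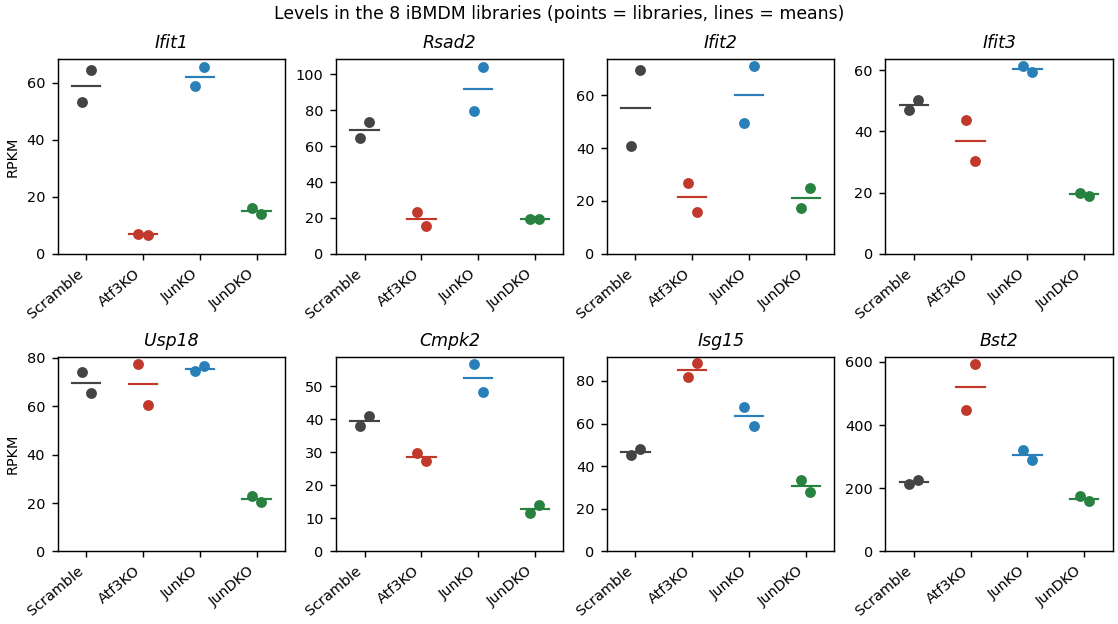
RPKM (vertical, axes from 0) of 8 genes in the 8 iBMDM libraries, points for libraries and lines for group means. Ifit1, Rsad2 and Ifit2 are low in Atf3KO and JunDKO, Usp18, Cmpk2 and Ifit3 are lowest in JunDKO, and Isg15 and Bst2 are highest in Atf3KO.

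Atf3KO and JunDKO were also compared directly. 7 of 47 genes were called (14.9%), each higher in Atf3KO, against 12.2% of all genes (5.5% higher, 6.73% lower). An adjusted p under 0.05 was reached by 20 genes (40.7% of all genes), and the groups did not overlap for 32 (71.7% of all genes). These 3 shares, over both directions, were near the background. By direction, 19 of the 20 genes were higher in Atf3KO and 1 was lower. The median difference was 0.51, against -0.15 over all genes. The called genes were Bst2, Usp18, Isg15, Xaf1, Cmpk2, Dhx58 and Oasl2. Usp18 measured 77.6 and 60.5 RPKM in Atf3KO and 23.1 and 20.5 in JunDKO (1.61 ± 0.19, adjusted p = 6.23e-04 by limma-trend), and Isg15 measured 81.7 and 88.4 against 33.4 and 28.1 (1.44 ± 0.17, adjusted p = 7.24e-04 by limma-trend).

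Ifit1 had the opposite order, lower in Atf3KO by 1.05 (-1.05 ± 0.18, adjusted p = 0.00344 by limma-trend), but with both means under 16 RPKM. For Rsad2 the 95% interval of the difference ran from -0.57 to 0.51, and for Ifit2 from -0.80 to 0.81. The neighbours Rsad2 and Cmpk2 thus differed in pattern: Cmpk2 measured 29.9 and 27.4 RPKM in Atf3KO and 11.7 and 13.96 in JunDKO (1.10 ± 0.18, adjusted p = 0.00263 by limma-trend). The call of Cmpk2 was lost without JunDKO replicate 1 and that of Oasl2 without Atf3KO replicate 1 and under quantile normalization. That of Xaf1 was lost without Atf3KO replicate 1 and without either JunDKO library (limma-trend adjusted p up to 0.142), and that of Dhx58 without Atf3KO replicate 2, without JunDKO replicate 2 and with the GC trend removed. With a pseudocount of 5 all 4 were under 2-fold. After the GC trend was removed 11 genes were called in this comparison (8.6% of all genes), of which 6 were among the 7.

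Many of the genes lie beside one another in the genome (positions on mm10, from the table). Ifit2, Ifit3 and Ifit1 lie on chromosome 19 from 34550694 to 34650009, and Rsad2 and Cmpk2 on chromosome 12 from 26442743 to 26479837. A stretch of chromosome 5 from 120730333 to 120907525 holds Oas2, Oas3, Oas1g and Oas1a, and chromosome 3 from 142496934 to 142638008 holds Gbp5, Gbp7, Gbp3 and Gbp2. Within a cluster levels differed: in Atf3KO, Ifit1 was at 7.08 and 6.51 RPKM and Ifit3 at 43.7 and 30.4. How reads shared by near-identical paralogs were assigned is not stated, which bears on Oas1a and Oas1g, Ifit3, Slfn8, Phf11b, Trim30a and the Gbp genes. The gene models of Parp9 and Dtx3l, and of Ifi47 and Olfr56, overlap, and counting is not stated to use strand. On opposite strands, Slfn5 also overlaps Slfn5os (at most 14.7 RPKM), Gbp2 overlaps Mir6381 (14.2) and Adar overlaps Chrnb2 (1.63).

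In TGEMs the KLA comparison asked which of these genes differ after 1 h of TLR4 activation. Of 45 genes tested 3 were called (6.67%), each higher, against 1.13% of all 10357 genes tested (1% higher, 0.126% lower). The same 3 genes had an adjusted p under 0.05, against 1.53% of all genes. The fit had 2 residual degrees of freedom, with treatment and strain as terms.

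Isg15 measured 1.40 RPKM in vehicle and 26.6 in KLA for C57Bl/6EiJ, and 2.27 in vehicle and 178 and 104 in KLA for Balb/cJ. It rose by 4.59 ± 0.46 on the log2 scale (adjusted p = 0.0032 by limma-trend). The Balb/cJ vehicle value rests on 4 reads, so the ratio of read rates of KLA replicate 1 to vehicle, 78.2, has an exact 95% interval of 30.5 to 287 (counting error only).

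Gbp5 measured 0.437 and 9.30 RPKM for C57Bl/6EiJ vehicle and KLA, and 1.14, 103 and 35.3 for Balb/cJ vehicle and both KLA libraries (3.99 ± 0.57, adjusted p = 0.0173 by limma-trend). Slfn2 measured 110 and 433 RPKM for C57Bl/6EiJ, and 39.6, 654 and 718 for Balb/cJ (3.17 ± 0.46, adjusted p = 0.0192 by limma-trend). For these genes every KLA library lay above every vehicle library, as in 18 of 45 genes in either direction (23.7% of all genes). All 3 calls were lost without the Balb/cJ vehicle library, the shallowest of the TGEM libraries, and with no filter on low values. The call of Slfn2 was also lost without Balb/cJ KLA replicate 1, and that of Gbp5 with a pseudocount of 5 and without the strain term. With label date in place of strain, where Balb/cJ KLA replicate 2 is alone on its date and adds nothing to the KLA term, only Isg15 was called.

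Oasl1 and Ifit1 did not pass by limma-trend. Oasl1, a gene with almost no reads in iBMDMs, measured 3.73 and 14.4 RPKM for C57Bl/6EiJ vehicle and KLA and 12.1, 256 and 109 for Balb/cJ (2.83 ± 0.53, adjusted p = 0.0556 by limma-trend). Ifit1 measured 1.30 and 5.60 RPKM for C57Bl/6EiJ and 1.30, 99.1 and 33.7 for Balb/cJ (3.33 ± 0.72, adjusted p = 0.0988 by limma-trend). Both were called with limma-voom on recovered reads, which called 7 genes (2.2% of all genes), and with all 13 libraries in one fit, which called 6 (2.21% of all genes).

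Rsad2 and Ifih1, the sensor MDA5, were not called by limma-trend, while limma-voom called both and the fit of all 13 libraries called Ifih1. Rsad2 measured 12.3 and 19.8 RPKM for C57Bl/6EiJ vehicle and KLA, and 8.48, 178 and 51.3 for Balb/cJ (limma-trend adjusted p of the KLA term 0.232). Ifih1 measured 3.76 and 7.15 RPKM for C57Bl/6EiJ, and 5.36, 65.2 and 23.5 for Balb/cJ (limma-trend adjusted p of the KLA term 0.204). In Rsad2, KLA replicate 1 of Balb/cJ, which shares its label date with the vehicle library, was at 20.9 times the vehicle read rate (exact 95% interval 16.7 to 26.6), replicate 2 at 6.05 times (4.79 to 7.74) and C57Bl/6EiJ at 1.61 times (1.38 to 1.88), intervals that cover counting error only.

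At a difference of 1 on the log2 scale, 5 genes were higher in every KLA library than in its own strain's vehicle library (1.68% of all genes): Isg15, Gbp5, Slfn2, Oasl1 and Ifit1. A further 5 were so in both Balb/cJ libraries and not in C57Bl/6EiJ (3.3% of all genes; Ifih1, Rsad2, Cmpk2, Ifi35 and Gbp3), and 2 in C57Bl/6EiJ and not in both Balb/cJ libraries (1.36% of all genes; Usp18 and Rtp4). Usp18 measured 1.10 and 6.12 RPKM for C57Bl/6EiJ and 4.61, 5.71 and 6.31 for Balb/cJ, with every KLA library above both vehicle libraries (0.94 ± 0.35, adjusted p = 0.290 by limma-trend). The difference between strains in the KLA term was tested with 1 residual degree of freedom. It had 0 limma-trend adjusted p under 0.05 among all genes, 7 of 45 genes of the list at an unadjusted p under 0.05 (8.06% of all genes), and limma-voom called 0.

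**Figure D5:**
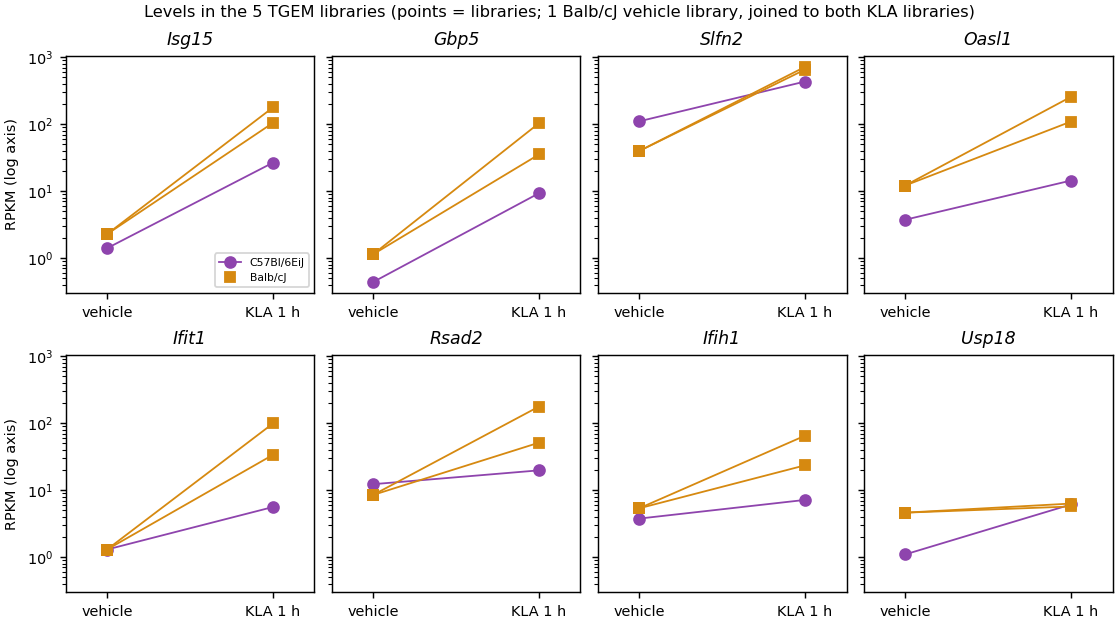
RPKM (vertical, log axis) of 8 genes in the 5 TGEM libraries by treatment (horizontal), with lines joining each KLA library to the vehicle library of its strain. The Balb/cJ lines for Ifit1, Oasl1, Rsad2 and Ifih1 end above the C57Bl/6EiJ lines.

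Stat2, Ddx58 and Ifit3 overlapped between vehicle and KLA. Stat2 measured 5.10 and 2.96 RPKM for C57Bl/6EiJ and 8.99, 7.50 and 5.29 for Balb/cJ, with a 95% interval of the difference from -1.12 to 0.07. Ddx58, the sensor RIG-I, measured 4.22 and 4.81, and 4.08, 4.72 and 3.33, with an interval from -0.55 to 0.65. Ifit3, a neighbour of Ifit1, measured 0.0440 and 0.462, and 3.21, 1.40 and 1.14 RPKM. Samhd1 did not overlap and was not called, at 55.6 and 46.3 RPKM for C57Bl/6EiJ and 54.9, 41.2 and 38.8 for Balb/cJ (-0.37 ± 0.25, adjusted p = 0.513 by limma-trend). The same held for Eif2ak2 (5.94 and 4.85, and 7.43, 5.52 and 5.36 RPKM). The median difference over the 45 genes was 0.07, against -0.15 over all genes.

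Between strains no member was called (1.16% of all genes were, 0.386% higher and 0.772% lower in Balb/cJ), with 1 limma-trend adjusted p under 0.05 (2.31% of all genes), 15 unadjusted p under 0.05 (21.4% of all genes) and 5 calls by limma-voom (3.33% of all genes). The passing gene was Ifi44, an interferon-induced effector, at 0 and 0.106 RPKM in the C57Bl/6EiJ libraries and 6.48, 3.80 and 2.26 in Balb/cJ (2.29 ± 0.38, adjusted p = 0.0310 by limma-trend). It lay under the RPKM minimum. Balb/cJ reads were aligned to another genome than C57Bl/6EiJ reads, fold changes between strains fell with GC content (Spearman's rho -0.50 over 45 of the listed genes, -0.45 over all), and strain and label date cannot be told apart.

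Of 26 genes of the pathway above these genes, 24 were tested in iBMDMs and none was called in Atf3KO, JunKO or JunDKO against Scramble, where 12.5%, 0.196% and 4.97% of all genes were. In Atf3KO 7 of the 24 passed an adjusted p of 0.05 by limma-trend (29.2%, against 41.2% of all genes), of which Tyk2, Mavs and Mb21d1 were higher and Jak2, Irf2, Irf9 and Tbk1 lower. Irf9, the DNA-binding subunit of ISGF3, measured 15.7 and 17.5 RPKM in Atf3KO and 24.2 and 26.6 in Scramble, while JunKO held 31.4 and 32.8 RPKM and JunDKO 23.2 and 22.9 (-0.58 ± 0.17 in Atf3KO, adjusted p = 0.0260 by limma-trend). Tlr4 and Tbk1, the kinase that activates IRF3, were called lower in Atf3KO than in JunDKO (-1.02 for each). They were the 2 of 24 pathway genes called there (8.33%, against 12.2% of all genes, 6.73% lower).

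Irf7, a factor that amplifies interferon production, measured 17.6 and 16.8 RPKM in JunDKO and 36.8 and 27.6 in JunKO (-0.85 ± 0.21, adjusted p = 0.0472 by limma-trend). It was the 1 of 24 pathway genes tested past an adjusted p of 0.05 in that comparison (4.17%, against 8.14% of all genes). The receptor chain Ifnar1 measured 24.9 and 26.5 RPKM in Scramble and 29.2 and 31.1 in JunDKO, and Ifnar2 41.1 and 46.3 against 87.7 and 63.6 (0.76 ± 0.27, adjusted p = 0.116 by limma-trend). Ifnb1 had 0 reads in all 8 iBMDM libraries, which allows at most 0.212 to 2.52 RPKM.

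In TGEMs all 26 pathway genes were tested and 2 were called higher after KLA (7.69%, against 1% of all genes). Irf1, a transcription factor that acts early in this response, measured 14.7 and 249 RPKM for C57Bl/6EiJ vehicle and KLA and 21.1, 245 and 272 for Balb/cJ (3.74 ± 0.26, adjusted p = 7.75e-04 by limma-trend). Socs3, an inhibitor of cytokine receptor signalling, measured 4.45 and 307 RPKM, and 4.40, 205 and 257 (5.59 ± 0.27, adjusted p = 1.96e-04 by limma-trend).

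Ifnb1, which encodes interferon-beta, had 0 reads in both vehicle libraries, and 3.21 RPKM (8 reads) in the C57Bl/6EiJ KLA library and 16.3 and 10.3 RPKM (216 and 52 reads) in the Balb/cJ KLA libraries. Against 3 reads per vehicle library it was at least 9.35-fold, 9.78-fold and 6.17-fold higher, with the KLA reads taken as counted. The exact 95% lower limits, which include the counting error of the KLA reads, were 5.98, 7.89 and 4.84. Its limma-trend adjusted p was 0.0168, under the RPKM minimum. Irf7 measured 4.85 and 6.13 RPKM for C57Bl/6EiJ and 14.4, 10.3 and 11.5 for Balb/cJ, and was not called.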

How the data were processed

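PolyA RNA-seq values of 13 of 17 samples were used as deposited. Per the labels and the study's methods, the authors aligned reads with STAR to mm10 (Balb/cJ reads to a genome of that strain) and computed RPKM with HOMER over exons with genes condensed, with versions not given in the sources used here. The authors' own test was edgeR, which was not used here. From the RPKM steps whole reads were recovered (100% of values up to 50 reads within 0.05 or rounding), which gave depths of 1553296 to 18444334. Intervals and floors cover counting error only.

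log2(RPKM + 1) was fitted with limma-trend (limma 3.58.1, R 4.3.3) over all models whose mean reached 1 RPKM, with Benjamini-Hochberg adjustment over 10691 (iBMDM, 4 groups in 1 fit, 4 residual degrees of freedom) or 10357 (TGEM, treatment and strain) genes. Fold changes on this scale understate those of low genes. A call needed an adjusted p under 0.05, a log2 fold change of 1 and a mean of 16 RPKM in either group. Named were all called genes, anchor genes of each role, the main pathway genes (1 is not reported here) and any other pathway gene called. Other genes named for their levels or for an adjusted p under 0.05 were chosen after their values were seen. The genes and lists were chosen with earlier results of these data known. The fit was tested on simulated reads that held no GC or date trend, so this does not check the calls against such trends. Alternatives were the pseudocount, the filter, scaling, a GC correction (natural spline, GC known for 48 of 49 genes), limma-voom on recovered reads, the thresholds, the samples in the fit, a replicate block and each replicate left out. Promoters came from RefSeq (GRCm38.p6), and for each gene the window nearest the start of its model was taken. Software also included Python 3.11.15, numpy 2.4.6, pandas 2.3.3 and matplotlib 3.10.9.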

Additional observations from a re-analysis of the deposited data

How the results depend on the processing

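Counts of called genes moved by over 1.5 times under these alternatives. Requiring a log2 fold change of 2 left 1 in Atf3KO, 0 in JunDKO, 1 in JunDKO against JunKO and 0 in Atf3KO against JunDKO. Equal library medians gave 10 in JunDKO (4.93% of all genes), 15 in JunDKO against JunKO (3.80%) and 12 in Atf3KO against JunDKO (12.7%). Atf3KO against JunDKO also had 3 with a pseudocount of 5 (9.14%), 11 with the GC trend removed (8.6%) and 11 without the RPKM minimum (28.6%). KLA had 0 with no filter on low values, 7 with limma-voom, 6 with all 13 libraries in one fit and 1 with label date in place of strain. Balb/cJ against C57Bl/6EiJ had 1 with a pseudocount of 0.1, 1 with the GC trend removed, 5 with limma-voom, 1 without the RPKM minimum and 2 with all 13 libraries. The strain difference in the KLA term had 1 with the GC trend removed (Ifit1, limma-trend adjusted p = 0.0275). Elsewhere the cause was not tested. With 1 replicate left out, counts spanned 4 to 7 in Atf3KO, 0 to 0 in JunKO, 4 to 5 in JunDKO, 5 to 6 in JunDKO against JunKO, 6 to 8 in Atf3KO against JunDKO, 0 to 4 for KLA (0 without the Balb/cJ vehicle library) and 0 to 2 for strain (2 without Balb/cJ KLA replicate 2), and could not be fitted for the strain difference. A lone library is then assumed to vary like the other groups. The difference of Ifit1 between strains spanned -6.28e-04 to 3.16 with a library left out, its sign turning without the C57Bl/6EiJ KLA library. In Atf3KO the median of the listed genes tested turned to 0.22 with the GC trend removed, 0.16 without Atf3KO replicate 2 and 0.046 without Scramble replicate 2.

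Replicate numbers are given to every iBMDM group, and the labels do not say what a number marks. Deviations of same-numbered libraries correlated at 0.18 to 0.22 among Scramble, JunKO and JunDKO and at -0.21 to -0.12 between each of these and Atf3KO. The numbers were not taken as pairs in the main fit, which includes all 4 groups. Whether they mark pairs among Scramble, JunKO and JunDKO was not tested. Atf3KO replicate 2 carries another label date. With a replicate block the calls were 6 in Atf3KO, 0 in JunKO, 5 in JunDKO, 7 in JunDKO against JunKO and 7 in Atf3KO against JunDKO, with the call of Ifit2 lost in JunDKO (limma-trend adjusted p = 0.0631) and in JunDKO against JunKO (0.0577). In TGEMs the labels give no replicate numbers, and the fit with label date, above, was the paired one. Depth limits genes of low level, such as Isg15 at 4 reads in Balb/cJ vehicle.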
